A study of Mus musculus with 6 samples.

Results

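The 10 genes described here encode the core of insulin and insulin-like growth factor (IGF) signalling in the mouse testis. They are the ligands Igf1 and Igf2, the receptors Igf1r, Insr and Igf2r, the binding proteins Igfbp3, Igfbp4 and Igfbp5, and the receptor substrates Irs1 and Irs2. They were chosen by name, and all 10 were found among the 44065 genes of the deposited table. The groups were 3 testis samples of sedentary mice (ST) and 3 of control mice (CT), described as biological replicates without saying whether each was 1 animal, so p-values measure the spread between these samples. All were male C57BL/6 mice that were 6 weeks old at the start of a 10-week exposure, and each sample gave 1 library of total RNA depleted of ribosomal RNA. No transgene, mutation or drug is named for either group, the labels do not say how the sedentary and control mice were housed, and the other group, labelled physical activity compensation, was not analysed here.

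IGF1 and IGF2 are small secreted growth factors that act on cells through IGF1R, a receptor tyrosine kinase closely related to the insulin receptor INSR. The receptors phosphorylate the docking proteins IRS1 and IRS2, which recruit PI3 kinase and so switch on AKT and mTOR and hold back the FOXO transcription factors, while SHC and GRB2 lead to the RAS and MAP kinase branch. Binding proteins hold IGFs in the extracellular space until proteases cut them, and IGF2R carries IGF2 to lysosomes without passing on a growth signal. In the testis of mice, signalling through INSR and IGF1R is known for driving the multiplication of Sertoli cells before puberty.

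Expression is given in FPKM, the count on a gene scaled to its length and to a total for the library, so that levels can be compared between genes. Whole reads recovered from these values summed to 34984951, 38148228 and 34176662 in sedentary replicates 1, 2 and 3, and to 37654913, 28495596 and 31432613 in control replicates 1, 2 and 3. The totals that the FPKM values imply differed from these sums. They were 33356449, 37813015 and 33887886 in sedentary and 39204250, 28495483 and 33168513 in control replicates 1, 2 and 3. Markers of Sertoli cells, Leydig cells, peritubular cells and every germ cell stage were present, with none of these lists' genes at 0 in all libraries, as the label of testis calls for, and 3 of 10 epididymis markers had no read at all. The summed Sertoli markers lay at 719.9 to 837.0 FPKM in sedentary and 571.7 to 635.2 FPKM in control testes, and those of spermatids at 28271 to 30844 FPKM in sedentary and 21851 to 26106 FPKM in control testes. The summed fibroblast and stroma markers lay at 35.7 to 44.1 FPKM in sedentary and 46.2 to 69.6 FPKM in control testes, so these sums did not overlap between the groups. Nor did the summed spermatogonia markers, at 72.1 to 79.4 FPKM in sedentary and 62.5 to 70.7 FPKM in control testes, or the 2 matched red blood cell markers, at 7.04 to 7.59 FPKM in sedentary and 5.33 to 5.68 FPKM in control testes. In whole tissue, fewer cells of a type and less RNA per cell cannot be told apart.

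None of the 10 genes passed the test between sedentary and control testes. At an adjusted p of 0.05 in limma on log2(FPKM + 0.5), 0.026% of all 19201 tested genes were called. Of the 10 genes, 8 reached at least 0.5 FPKM in at least 3 libraries and were tested there, and of these 0 had even an unadjusted p under 0.05, against 17.4% of all tested genes. The receptor substrate Irs1 and the binding protein Igfbp5 were below that level in every library. Both were lower in each sedentary testis than in each control testis, by more than 2-fold on the means, and both are described first.

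Irs1 (MGP_C57BL6NJ_G0016604; chromosome 1 from 86344306 to 86404098, minus strand, as the deposited table gives it, with the genome build not settled) encodes a docking protein that links INSR and IGF1R to PI3 kinase. Igfbp5 (MGP_C57BL6NJ_G0016528; chromosome 1 from 76239470 to 76256429, minus strand, same table) encodes a secreted binding protein that also attaches to extracellular matrix. The promoters of these genes are shown because these are the members whose groups did not overlap. Each runs from 250 bases before to 50 bases after the gene start and is taken from RefSeq on GRCm38.p6. The Irs1 promoter is chr1:82291390-82291689 and the Igfbp5 promoter is chr1:72874816-72875115, both read on the minus strand, 5′ to 3′. Both lie apart from the genes' positions in the deposited table, so its coordinates are not those of GRCm38.p6. Its gene IDs carry the strain name C57BL6NJ. Capitals mark any match on either strand to one of 6 motifs. The GC box was searched as GGGCGG. The element of promoters bound by TATA-binding protein, the so-called TATA box, was searched as TATAAA. The box that nuclear factor Y is known to bind was searched as CCAAT. The core site of the forkhead factors of the FOXO family was searched as GTAAACA. The response element for cyclic AMP was searched as TGACGTCA. The E box, which basic helix-loop-helix proteins bind, was searched as CACGTG.
Irs1: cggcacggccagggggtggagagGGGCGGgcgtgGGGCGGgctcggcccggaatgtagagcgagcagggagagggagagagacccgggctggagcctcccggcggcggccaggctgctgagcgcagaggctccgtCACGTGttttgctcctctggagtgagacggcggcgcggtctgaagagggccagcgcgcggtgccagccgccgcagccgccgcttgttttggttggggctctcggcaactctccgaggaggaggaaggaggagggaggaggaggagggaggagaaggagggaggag
Igfbp5: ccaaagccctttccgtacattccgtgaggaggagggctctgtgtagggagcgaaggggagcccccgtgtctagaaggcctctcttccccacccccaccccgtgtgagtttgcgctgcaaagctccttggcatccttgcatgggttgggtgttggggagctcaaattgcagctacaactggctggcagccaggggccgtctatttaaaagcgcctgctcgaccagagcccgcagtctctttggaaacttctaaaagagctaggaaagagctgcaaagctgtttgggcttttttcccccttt
The Irs1 window held 2 GC boxes and 1 E box, none of which overlapped, and had a GC content of 71.3% with 28 CpG dinucleotides. Of 32851 RefSeq promoter windows of 300 bases, 35.7% held a GC box and 7.15% an E box, 13.6% the TATA box, 37.4% the nuclear factor Y box, 3.65% the FOXO core and 1.79% the cyclic AMP element. The Igfbp5 window held 0 matches to the 6 motifs and had a GC content of 56.3% with 10 CpG dinucleotides. These matches describe the letters in the windows and are not evidence of binding.

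Irs1 stood at 0.0721, 0.0607 and 0.0645 FPKM in sedentary replicates 1, 2 and 3, and at 0.106, 0.180 and 0.234 FPKM in control replicates 1, 2 and 3. The sedentary values lay close together and below every control value, while the control values spread more widely. These values rest on 22, 21 and 20 reads in the sedentary libraries and on 38, 47 and 71 reads in the control libraries. The means were 0.0658 ± 0.00580 FPKM in sedentary and 0.173 ± 0.0643 FPKM in control testes (SD, n = 3 each).

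Igfbp5 stood at 0.130, 0.0793 and 0.0737 FPKM in sedentary replicates 1, 2 and 3, and at 0.191, 0.228 and 0.251 FPKM in control replicates 1, 2 and 3. Here too each sedentary value lay below each control value, and sedentary replicate 1 was the highest of its group. The reads behind them were 26, 18 and 15 in the sedentary and 45, 39 and 50 in the control libraries. The means were 0.0942 ± 0.0309 FPKM in sedentary and 0.223 ± 0.0302 FPKM in control testes (SD, n = 3 each).

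**Figure D1:**
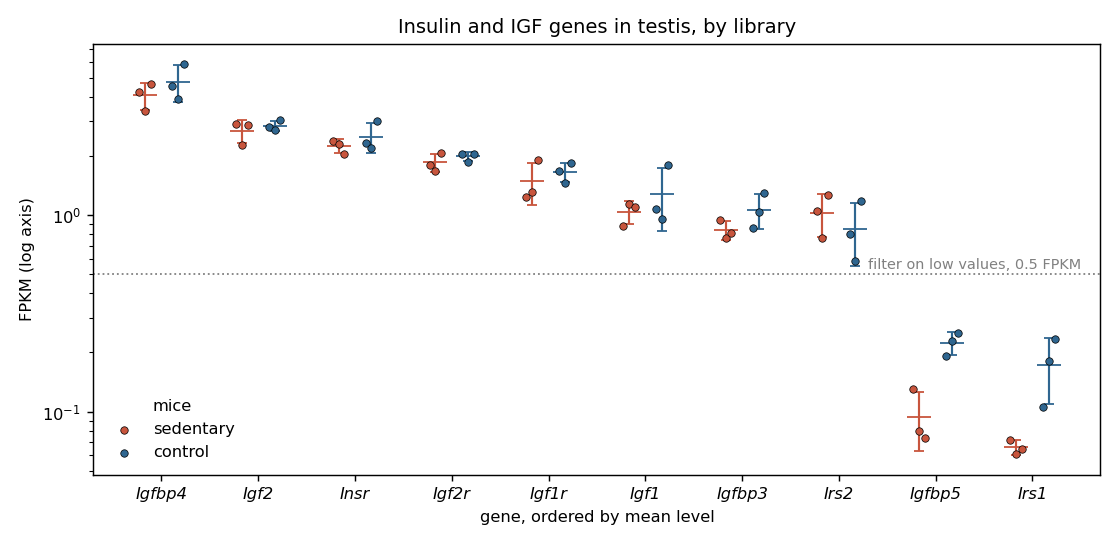
FPKM of each gene on a log axis, with 1 point per library, sedentary mice left of control mice, and the group mean as a dash with bars of 1 SD. Irs1 and Igfbp5 lie below the filter of 0.5 FPKM and their groups do not overlap, while the other 8 genes overlap between the groups.

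A pseudocount of 0.5 FPKM is larger than either gene's level, so these genes were tested on the recovered reads, in all 22330 genes with at least 10 reads in at least 3 libraries, by limma's voom. In that fit the log2 fold change of Irs1 was -1.28 ± 0.37 (SE), with an unadjusted p of 0.00282 and an adjusted p of 0.0814. The estimate corresponds to a ratio of 0.413, with a 95% interval of 0.240 to 0.710. For Igfbp5 it was -1.26 ± 0.35 (SE), with an unadjusted p of 0.00195 and an adjusted p of 0.0735, or a ratio of 0.418 with an interval of 0.251 to 0.696. Both missed the threshold, and this fit was chosen after the values were seen. On log2(FPKM + 0.5) with no filter on low values, limma gave -0.25 for Irs1 and -0.28 for Igfbp5, with adjusted p of 0.350 and 0.317. Without control replicate 1, voom called Irs1 with an adjusted p of 0.0471. In that setting 86 of 21881 genes were called, 83 of them lower, against 289 of 22330 with all libraries. When any other single library was left out, voom did not call Irs1, with adjusted p of up to 0.294. Igfbp5 was not called without any single library, with adjusted p between 0.0682 and 0.239.

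An exact two-sided permutation test over the 6 libraries gave p = 0.1 for Irs1 and for Igfbp5, the smallest p that 3 against 3 allows. Groups did not overlap, with sedentary testes lower, in 2 of the 10 members and in 11.2% of all genes in the read-based fit. They did not overlap with sedentary testes higher in 0 members and in 12.2% of all genes. An unadjusted p under 0.05 with lower values was reached by 2 of the 10 members and by 9.72% of all genes. Among the 2589 protein-coding genes of that fit that were too low for the FPKM filter, 12.1% had sedentary values all below control values and 9.27% had an unadjusted p under 0.05 in that direction. Of those 2589 genes, 6 were called lower and 0 higher, and their median log2 fold change was -0.14. The call rate over all 22330 genes was 1.29%, with 1.01% lower.

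The fibroblast and stroma markers also stood lower in sedentary testes. Of the 10 markers, 3 were lower in each sedentary than in each control testis and 0 higher, with the sums given above. Of the 10 peritubular and smooth muscle markers, 5 were lower without overlap and 1 higher, and their sum, which Actg2 dominates, ran from 262.2 to 296.4 FPKM in sedentary and from 256.4 to 277.1 FPKM in control testes. Of the 10 Leydig markers, 3 were lower without overlap and 0 higher, and of the 10 endothelial markers 3 were lower and 0 higher. Over all genes in the read-based fit, 11.2% were lower and 12.2% higher without overlap. Of the 13 Sertoli markers 10 were higher without overlap and 0 lower, and of the 11 spermatid markers 5 were higher and 0 lower. Of the 10 spermatogonia markers 3 were higher and 1 lower, and of the 10 spermatocyte markers 1 was higher and 2 lower. Of the 9 matched macrophage markers 0 were higher and 0 lower. The part of any of these cells in the Irs1 and Igfbp5 values was not tested.

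The ligands were present at low levels. Igf1 (MGP_C57BL6NJ_G0018019; chromosome 10 from 91907890 to 91987972, plus strand) stood at 0.881, 1.14 and 1.10 FPKM in sedentary replicates 1, 2 and 3, and at 1.08, 0.961 and 1.79 FPKM in control replicates 1, 2 and 3. The groups overlapped, and control replicate 3 stood well above the other 5 libraries. By limma its log2 fold change was -0.18 ± 0.19 (SE, adjusted p = 0.644), with a 95% interval of the ratio from 0.654 to 1.19. Without control replicate 3 the log2 fold change was 0.02, so its sign rested on that library.

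Igf2 (MGP_C57BL6NJ_G0033755; chromosome 7 from 153262361 to 153282637, minus strand), a fetal growth factor expressed from the paternal allele, stood at 2.91, 2.29 and 2.87 FPKM in sedentary replicates 1, 2 and 3, and at 2.82, 2.72 and 3.04 FPKM in control replicates 1, 2 and 3. Apart from sedentary replicate 2 the libraries lay within a narrow range. By limma the log2 fold change was -0.08 ± 0.12 (SE, adjusted p = 0.753), and the interval of the ratio ran from 0.786 to 1.14. Without sedentary replicate 2 the log2 fold change was 0.02. Igf2 exceeded Igf1 in every library, by 3.31-fold, 2.01-fold and 2.60-fold in sedentary and 2.62-fold, 2.83-fold and 1.70-fold in control replicates 1, 2 and 3. The insulin genes themselves had few reads. Ins1 had 0 reads in each library, which allows up to 3 reads a library by counting error alone, and Ins2 had 17 reads over the sedentary and 16 over the control libraries.

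The insulin receptor gene Insr (MGP_C57BL6NJ_G0033792; chromosome 8 from 55684 to 192168, minus strand) had the highest mean level of the receptors. It stood at 2.39, 2.31 and 2.05 FPKM in sedentary replicates 1, 2 and 3, and at 2.33, 2.19 and 3.00 FPKM in control replicates 1, 2 and 3. The groups overlapped, with control replicate 3 alone above the rest. Tested with limma, the log2 fold change was -0.12 ± 0.13 (SE, adjusted p = 0.662), with an interval of the ratio from 0.747 to 1.13. It was -0.20 without control replicate 2 and -0.0051 without control replicate 3. The antisense model Gm16180 lies inside Insr and held 24, 19 and 8 reads in sedentary and 15, 19 and 26 reads in control replicates 1, 2 and 3. The sources used here do not say whether counting used strand, so reads of such overlapping pairs cannot be told apart.

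Igf1r (MGP_C57BL6NJ_G0032845; chromosome 7 from 72184994 to 72467942, plus strand), the main signalling receptor for both IGFs, stood at 1.24, 1.32 and 1.91 FPKM in sedentary replicates 1, 2 and 3, and at 1.69, 1.46 and 1.83 FPKM in control replicates 1, 2 and 3. Sedentary replicates 1 and 2 were the lowest of the 6 libraries and sedentary replicate 3 the highest, so the sedentary group spanned the control group. In the limma fit, the log2 fold change was -0.13 ± 0.16 (SE, adjusted p = 0.689), and the interval of the ratio ran from 0.714 to 1.17. It was -0.28 without sedentary replicate 3 and -0.04 without sedentary replicate 1. Insr exceeded Igf1r by 1.92-fold, 1.75-fold and 1.08-fold in sedentary and by 1.38-fold, 1.495-fold and 1.64-fold in control replicates 1, 2 and 3.

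Igf2r (MGP_C57BL6NJ_G0023560; chromosome 17 from 10736595 to 10827295, minus strand), which clears IGF2 and sorts lysosomal enzymes, stood at 1.80, 1.69 and 2.08 FPKM in sedentary replicates 1, 2 and 3, and at 2.04, 1.87 and 2.06 FPKM in control replicates 1, 2 and 3. The groups overlapped, and sedentary replicate 3 held the highest value. By limma the log2 fold change was -0.08 ± 0.11 (SE, adjusted p = 0.730), with an interval of the ratio from 0.786 to 1.13. Leaving out sedentary replicate 3 gave -0.15, and leaving out sedentary replicate 2 gave -0.03.

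Igfbp4 (MGP_C57BL6NJ_G0019474; chromosome 11 from 104812099 to 104826250, plus strand), a binding protein known for restraining IGF action until the protease PAPP-A cuts it, was the most abundant of the 10 genes. It stood at 4.21, 3.39 and 4.65 FPKM in sedentary replicates 1, 2 and 3, and at 4.57, 3.88 and 5.91 FPKM in control replicates 1, 2 and 3. The groups overlapped, with the lowest value in the sedentary and the highest in the control group. Tested with limma, the log2 fold change was -0.20 ± 0.16 (SE, adjusted p = 0.546), and the interval of the ratio ran from 0.675 to 1.13. Without control replicate 3 it was -0.05.

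Igfbp3 (MGP_C57BL6NJ_G0018427; chromosome 11 from 4491468 to 4499305, minus strand), the main carrier of IGFs in blood, stood at 0.948, 0.769 and 0.811 FPKM in sedentary replicates 1, 2 and 3, and at 0.864, 1.04 and 1.29 FPKM in control replicates 1, 2 and 3. The groups overlapped through sedentary replicate 1 and control replicate 1. In the limma fit, the log2 fold change was -0.22 ± 0.15 (SE, adjusted p = 0.476), with an interval of the ratio from 0.679 to 1.09. Leaving out control replicate 1 gave -0.31, and leaving out control replicate 3 gave -0.11.

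Irs2 (MGP_C57BL6NJ_G0033843; chromosome 8 from 8523792 to 8545229, minus strand), the other docking protein, was the only one of the 8 tested genes with a log2 fold change above 0. It stood at 1.05, 0.762 and 1.27 FPKM in sedentary replicates 1, 2 and 3, and at 0.799, 0.584 and 1.18 FPKM in control replicates 1, 2 and 3. The groups overlapped. By limma the log2 fold change was 0.18 ± 0.20 (SE, adjusted p = 0.660), and the interval of the ratio ran from 0.826 to 1.56. The estimate was 0.04 without control replicate 2 and 0.35 without control replicate 3.

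**Figure D2:**
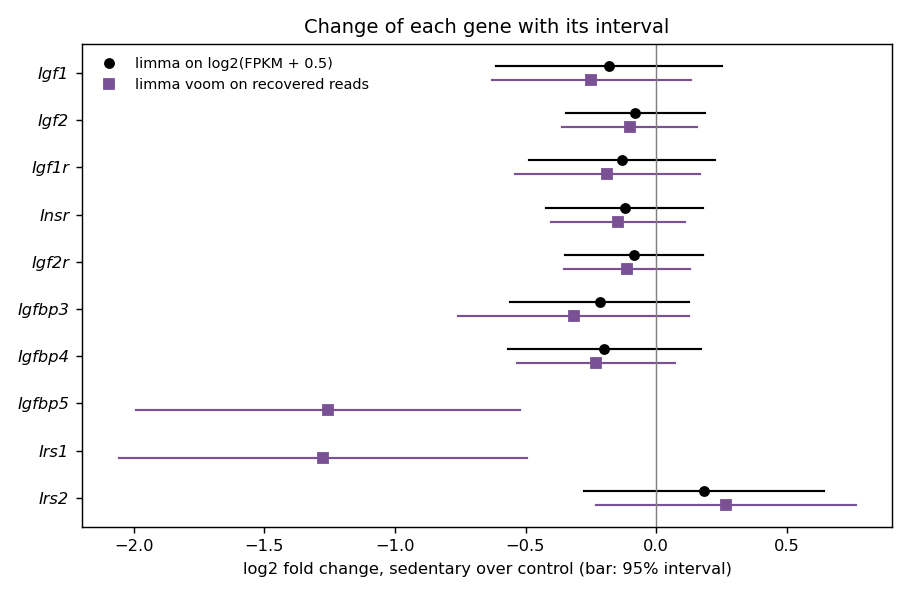
Log2 fold change of each gene, sedentary over control, with its 95% interval, from limma on log2(FPKM + 0.5) and from voom on the recovered reads. The intervals of Irs1 and Igfbp5, shown for the reads alone, lie below 0, and those of the other 8 genes include 0 in both fits.

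In order of mean level the 10 genes ran from Igfbp4 through Igf2, Insr, Igf2r, Igf1r, Igf1, Igfbp3 and Irs2 to Igfbp5 and Irs1. Igfbp4 was above Igf2, and Irs2 above Igfbp5, without overlap in either group. Every other pair of neighbours overlapped in at least 1 group, so that there its order was not beyond the spread between samples. Within each of the 6 libraries, though, Igf2r lay above Igf1r, Igf1r above Igf1 and Igfbp5 above Irs1. Insr and Igf2r, and Igf2r and Igf1r, were separate in the control group and overlapped in the sedentary group. Igf1r and Igf1, and Igfbp5 and Irs1, were separate in the sedentary group and overlapped in the control group.

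Control replicate 3 held the highest value of 7 of the 10 genes, and sedentary replicate 3 that of the other 3, Igf1r, Igf2r and Irs2. Sedentary replicate 2 held the lowest value of 5 genes. The same control library had the highest summed fibroblast and stroma markers, 69.6 FPKM, against 46.2 and 47.3 FPKM in the other 2 control libraries, and its part in the values was not tested. Of the 8 tested genes 7 had a log2 fold change below 0, with a median of -0.13, against 9175 of 19201 and a median of 0.01 over all tested genes. With FPKM rescaled to TPM the medians were -0.25 and -0.09. Without control replicate 3 the median of the 8 genes was -0.05.

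Ratios between family members within a library do not depend on how libraries are scaled. Irs2 exceeded Irs1 by 14.6-fold, 12.6-fold and 19.7-fold in sedentary replicates 1, 2 and 3, and by 7.54-fold, 3.24-fold and 5.03-fold in control replicates 1, 2 and 3. Every sedentary library thus had a larger excess of Irs2 than any control library. Irs1 made up 6.42%, 7.38% and 4.84% of the summed FPKM of the pair in sedentary and 11.7%, 23.6% and 16.6% in control replicates 1, 2 and 3. Igfbp3 exceeded Igfbp5 by 7.31-fold, 9.70-fold and 11.0-fold in sedentary and by 4.52-fold, 4.58-fold and 5.14-fold in control replicates 1, 2 and 3, again without overlap. Igfbp4 exceeded Igfbp5 by 32.5-fold, 42.7-fold and 63.1-fold in sedentary and by 23.9-fold, 17.04-fold and 23.6-fold in control replicates 1, 2 and 3. The ratios without Irs1 or Igfbp5, namely Igfbp4 to Igfbp3, Igf2 to Igf1, Insr to Igf1r and Igf2r to Igf1r, overlapped between the groups. These ratios were not tested, and those with Irs1 or Igfbp5 restate the values of these genes.

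**Figure D3:**
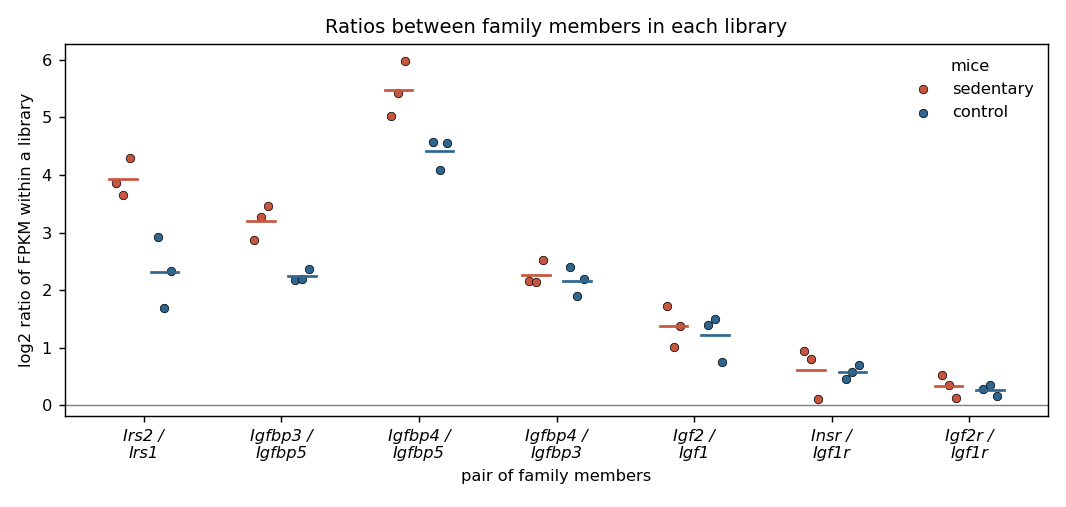
Log2 ratio of FPKM between family members in each library, with sedentary mice left of control mice and the group mean as a line. The ratios over Irs1 and Igfbp5 separate the groups and the other 4 overlap.

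The genes whose log2(FPKM + 0.5) most resembled a member over the 6 libraries were sought among 11609 protein-coding genes with a mean of at least 1 FPKM. Pearson's r is given as a description over libraries of 1 experiment, with no test. Each tested member had a best r of at least 0.980. As the best of 11609 genes over only 6 libraries, such values do not show a link between genes. Igf1 was most like Tgfbr2 (r = 0.998) and Pkd2 (r = 0.993), a receptor for transforming growth factor beta and a cation channel. Insr was most like Wnk3 (r = 0.996) and Fgf14 (r = 0.988). Igfbp4 was most like Htra1 (r = 0.993), a secreted protease that can cut IGF-binding proteins, and Acaa2 (r = 0.989). Irs2 was most like Cbr2 (r = 0.989) and Pcdh17 (r = 0.984), Igf1r like Pofut1 (r = 0.986) and Uggt1 (r = 0.981), and Igf2r like Pramel1 (r = 0.985) and Map2k1 (r = 0.975). Igf2 was most like Slc9a3r2 (r = 0.980) and Mef2d (r = 0.971), and Igfbp3 like Stard5 (r = 0.980) and Olfr215 (r = 0.975).

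Around these genes, 107 other genes of the pathway were followed, from binding proteins and their proteases to AKT, mTOR, FOXO, RAS and growth hormone signalling. Of these 105 were matched by name and 87 tested on FPKM, and 0 were called in either direction, by limma on FPKM or by voom on the reads with the FPKM filter, where 1.44% of all genes were called, or with the read filter. On FPKM 36 lay above 0 and 51 below, the median of their log2 fold changes was -0.05, and an unadjusted p under 0.05 was reached by 11 higher and 3 lower, against 10.1% and 7.26% of all tested genes. Groups did not overlap in 13 higher and 11 lower, against 13.7% and 10.8% of all tested genes, so both counts lay near those of all genes. On the reads with the read filter 100 were tested, and 12 higher and 14 lower had an unadjusted p under 0.05, against 9.31% and 9.72% of all genes.

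Among the other carriers of IGF, Igfals and Igfbp2 had the smallest unadjusted p. Igfals, which binds IGF and IGFBP3 into the large complex of blood, stood at 1.58, 1.35 and 1.10 FPKM in sedentary replicates 1, 2 and 3 and at 0.858, 1.03 and 0.614 FPKM in control replicates 1, 2 and 3. Igfbp2 stood at 6.61, 6.48 and 8.995 FPKM in sedentary and at 5.77, 5.51 and 5.65 FPKM in control replicates 1, 2 and 3. Both were higher in every sedentary than in every control testis, with log2 fold changes of 0.47 and 0.34 (SE 0.17 and 0.13) and adjusted p of 0.228 and 0.240 by limma. Igfbp7, a low-affinity relative, averaged 36.0 ± 4.66 FPKM in sedentary and 42.5 ± 3.93 FPKM in control testes (SD, n = 3 each), lower without overlap. The protease gene Pappa averaged 2.49 ± 0.287 FPKM in sedentary and 2.13 ± 0.0576 FPKM in control testes, higher without overlap and with an adjusted p of 0.428 by limma.

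Of the other ligands, Insl3 and Insl6, relaxin-like hormones of Leydig and germ cells, were far more abundant than the IGFs. Insl3 averaged 982.3 ± 220.8 FPKM in sedentary and 1003.5 ± 170.1 FPKM in control testes, and Insl6 averaged 152.7 ± 7.90 FPKM in sedentary and 142.4 ± 6.48 FPKM in control testes (SD, n = 3 each). Both overlapped between the groups.

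Among adaptors, the smallest unadjusted p belonged to Shc2, at 1.97 ± 0.242 FPKM in sedentary and 1.46 ± 0.00924 FPKM in control testes (SD, n = 3), and to the adaptor Sh2b2, at 0.618 ± 0.122 FPKM in sedentary and 0.893 ± 0.0593 FPKM in control testes. Their log2 fold changes were 0.33 and -0.32, with adjusted p of 0.235 and 0.296 by limma, and neither pair of groups overlapped. In the PI3 kinase and AKT class, 2 subunits of mTORC2 had log2 fold changes of opposite sign. Rictor averaged 2.18 ± 0.0649 FPKM in sedentary and 3.01 ± 0.654 FPKM in control testes, and Mapkap1 averaged 35.8 ± 2.06 FPKM in sedentary and 30.5 ± 2.14 FPKM in control testes. Their log2 fold changes were -0.37 and 0.23, with adjusted p of 0.251 and 0.224 by limma. Pik3cd, also among the 3 smallest unadjusted p of that class, had a log2 fold change of 0.23 and a limma adjusted p of 0.262. On the reads with the read filter, Rictor was called without control replicate 2, with a voom adjusted p of 0.00867, and had 0.0807 with all libraries. In that setting 1049 of 22095 genes were called, against 289 of 22330 with all libraries. Rictor was not called without any other single library.

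The brakes of the pathway were split as well, with 4 genes higher and 4 lower without overlap of 14 tested, against 13.7% and 10.8% of all tested genes. Phlpp2, a phosphatase that removes phosphate from AKT, stood at 0.576, 0.435 and 0.510 FPKM in sedentary replicates 1, 2 and 3 and at 0.729, 0.854 and 1.004 FPKM in control replicates 1, 2 and 3. By limma on FPKM its log2 fold change was -0.43 ± 0.15 (SE, adjusted p = 0.221), and its voom adjusted p was 0.0660. Pik3ip1, an inhibitor of PI3 kinase, and Ptpn1, a phosphatase of the insulin receptor, had log2 fold changes of 0.21 and 0.24 with adjusted p of 0.214 and 0.225 by limma. In the RAS branch Hras, Map2k2 and Mapk3 were each higher without overlap, with log2 fold changes of 0.29, 0.27 and 0.20 and adjusted p of 0.221, 0.245 and 0.255 by limma. Of the 12 tested genes of that branch 3 were higher and 1 lower without overlap, against 13.7% and 10.8% of all tested genes. Of the FOXO factors, Foxo6 averaged 1.65 ± 0.199 FPKM in sedentary and 1.15 ± 0.224 FPKM in control testes, at a log2 fold change of 0.38 (limma, adjusted p = 0.246), and the log2 fold change of Foxo3 was 0.16 (adjusted p = 0.409). Those of Foxo1 and Foxo4, the other two, were -0.04 and -0.10, with adjusted p of 0.890 and 0.693 by limma. In the mTORC1 class 0 of 13 tested genes were free of overlap, against 24.5% of all tested genes in either direction. The smallest unadjusted p there was that of Rps6kb1, a kinase of ribosomal protein S6, at a log2 fold change of -0.28 (limma, adjusted p = 0.342).

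**Figure D4:**
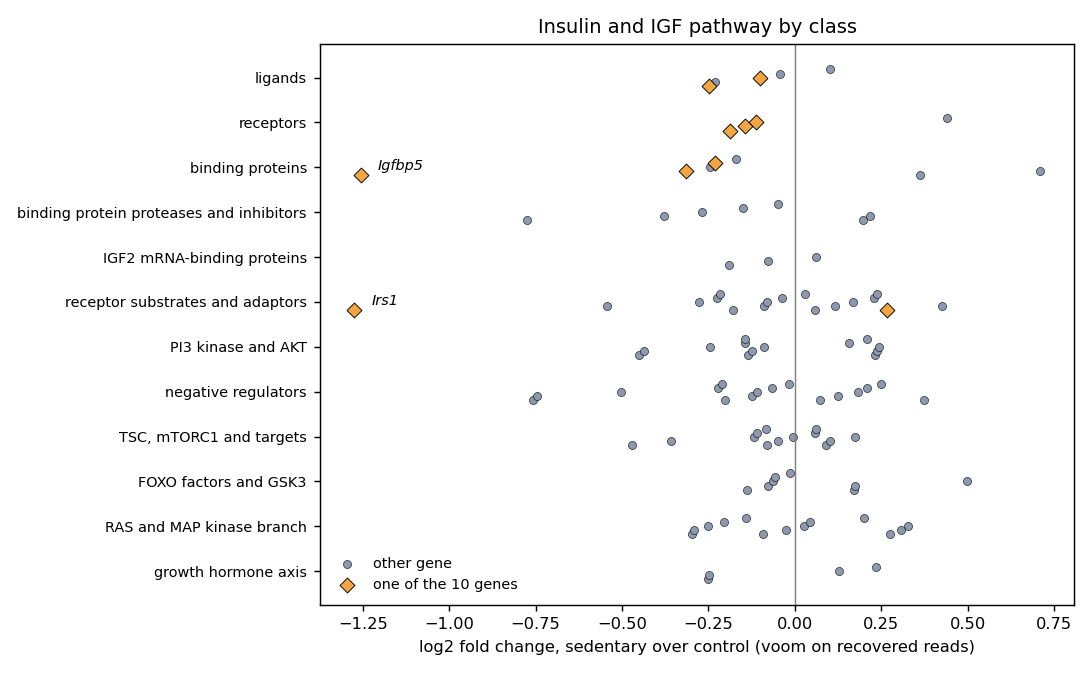
Log2 fold change, sedentary over control, from voom on the recovered reads, for each gene of the pathway by class, with the 10 genes as diamonds and the other genes as circles. Irs1 and Igfbp5 lie at -1.28 and -1.26, below every other gene shown.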

How the data were processed

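RNA-seq libraries without ribosomal RNA came from 3 testis samples of sedentary and 3 of control mice. The authors deposited 1 table of FPKM values with gene lengths. HISAT2, StringTie, DESeq2, mm10 and mm39 are named, per the submitters' processing notes, with roles and versions not given in the sources used here. Of the values above 0, 100% times gene length were whole multiples of 1 step per library (relative tolerance 0.001), so whole reads were recovered. Low counts of 1 to 20 were even in 56.2% to 59.0%, as when both mates of a fragment count, and reads are not separate molecules.

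R 4.3.3 and limma 3.58.1 were used. The main test was limma's moderated test with an expression trend on log2(FPKM + 0.5), two-sided, over the 19201 genes that reached 0.5 FPKM in 3 or more libraries, adjusted by Benjamini-Hochberg with a threshold of 0.05; such fold changes understate those of low genes. Voom used the recovered reads and the library totals implied by the deposited FPKM values. The read filter was added after the data were seen. Tests were tested on simulated data. The members and gene lists were chosen with earlier results of these data known. Named genes are all members and the 2 most similar genes of each tested member. Pathway genes were named from those past the threshold or among the 3 smallest p of a class, but not all of these are named. Others were named after their values were seen. Alternatives changed the pseudocount, filter, scaling, weights, unit and libraries. GC content came from the longest GENCODE M21 transcript of each symbol. Socs2 and Stat5a were not matched by name.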

Additional observations from a re-analysis of the deposited data

How the results depend on the processing

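The count of called members was 0 in each FPKM-based alternative, and 0 to 0 when leaving out single libraries. Over all genes, limma on FPKM called at most 16 of 19201, with array weights, and 0 or 1 when a single library was left out. A count of 0 in these limma fits thus says little about the members or the other pathway genes. The count of other pathway genes called on FPKM was 0 to 0 without single libraries. On the reads it was 1, Phlpp2, with voom on summed totals in place of deposited totals. With the FPKM filter, summed totals called 429 of 19201 genes, 408 of them lower, against 277 with deposited totals. The count on the reads was also 1, Rictor, with the read filter and without control replicate 2. In that last setting 1049 of 22095 genes were called. The median log2 fold change of the 8 tested members, -0.13 with all libraries, was -0.25 with TPM scaling, -0.24 with voom on summed totals, and between -0.20 and -0.05 without single libraries. These scalings also moved the median of all genes, to -0.09 and -0.06. On the reads with the read filter, 0 members were called with all libraries and 0 to 1 without single libraries, the 1 being Irs1 without control replicate 1. Without that library 86 of 21881 genes were called.

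The replicate numbers are not said to pair the samples. Deviations from the group mean in same-numbered libraries correlated at -0.07, -0.09 and -0.03, and no library correlated best with its own number. Correlations this weak, over 3 libraries a group, cannot settle whether the numbers pair samples. With the replicate number as a block, 0 members were called on FPKM, where 0 of all 19201 tested genes were called. On the reads 1 member was called, Irs1, with a voom adjusted p of 0.0490. In that block fit 383 of all 22330 genes were called. On the reads, removal of each library's trend with GC content and length, over the 77.0% of genes with a GC value, left Irs1 and Igfbp5 at -1.21 and -1.22, with voom adjusted p of 0.0933 and 0.0792, and moved Igf1 to 0.03. Over all genes that check is void, as fewer than 80% had a value; all 10 members had one. The calls over all genes on the reads were 289 with all libraries, 445 with summed totals and between 16 and 1049 without single libraries. Over the 17192 genes with a GC value they were 60 after that removal and 81 without it. The causes were not tested. Irs1 and Igfbp5 rest on 15 to 71 reads per library.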

Other observations

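Of 18 genes known as FOXO targets in other tissues, 15 were tested and 0 were called. An unadjusted p under 0.05 by limma was reached by 3 with higher and 3 with lower values in sedentary testes. Over all tested genes it was reached by 10.1% and 7.26%. The median log2 fold change of the 15 genes was -0.05, against 0.01 over all tested genes. These genes are named after their values were seen. Cited4, a transcriptional coactivator, and Cdkn1a, a cell cycle inhibitor, had log2 fold changes of 0.43 and 0.38 with adjusted p of 0.207 and 0.247 by limma. Cat, the peroxide-degrading enzyme catalase, and Txnip, an inhibitor of thioredoxin and of glucose uptake, had log2 fold changes of -0.36 and -0.47 with adjusted p of 0.207 and 0.271. Sesn2 and Sesn3 had log2 fold changes of 0.24 and -0.25 with adjusted p of 0.264 and 0.245 by limma.

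Models that share ground with the members held few reads. Igf1os had 2, 0 and 2 reads in sedentary and 4, 0 and 2 reads in control replicates 1, 2 and 3, and Igf2os had 9, 7 and 7 reads in sedentary and 9, 6 and 2 reads in control replicates 1, 2 and 3. Mir483, inside Igf2, and Gm9747, inside Irs1, had 0 reads in every library. An unannotated locus on the opposite strand, just past the end of Igf1r, had 315, 347 and 414 reads in sedentary and 437, 279 and 470 reads in control replicates 1, 2 and 3.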
